A study of Homo sapiens with 2 samples.

Results

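The genes examined encode feedback inhibitors and closely tied readouts of signalling from growth factor receptors through RAS to the kinase ERK. They were chosen by name, as the rows of the expression table for DUSP1, DUSP4, DUSP5, DUSP6, SPRY1, SPRY2, SPRY4, SPRED1, SPRED2 and PHLDA1. All 10 were found, each on a single row, among 56255 gene symbols. RNA had been sequenced from A549, an established human lung adenocarcinoma line. The 2 groups were wild-type cells labelled as untreated (WT) and cells labelled as overexpressing MYOCD (MYOCD), each a single library, and both were cultured in DMEM with serum. Myocardin, the product of MYOCD, binds the DNA-binding protein SRF and switches on muscle genes with it. How MYOCD was introduced, or whether the WT cells received an empty vector, is not stated in any label. With 1 library in each group no value has a replicate error, no test was possible, and a difference between the libraries cannot be told apart from a difference between cultures.

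Growth factor receptors load RAS with GTP through adaptor proteins, and RAS then drives the kinases RAF, MEK and ERK in turn. Active ERK raises transcription of its own inhibitors, so their mRNA is widely used as a readout of the output of the pathway. The DUSP proteins of this group remove phosphate from MAP kinases, the Sprouty proteins (SPRY) restrain signalling between the receptor and RAF, and the SPRED proteins bring the RAS inactivator neurofibromin to the membrane. PHLDA1, a protein with a pleckstrin homology-like domain, is induced with them.

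Values are RPKM, read numbers normalised to gene length and library size, so levels can be compared between genes. Where a pair of values is given without labels, WT comes first and MYOCD follows. They summed to 886700 in WT and 880876 in MYOCD, and 16161 and 15973 gene symbols reached 1 RPKM. The MYOCD gene itself measured 0.304 RPKM in the WT library and 48.6 in the MYOCD library, in the direction of the labels. Epithelial and A549 markers reached 1 RPKM for 9 of 13 genes, and their summed level was 7277 RPKM in WT and 6944 in MYOCD. The surfactant gene SFTPC, a defining marker of alveolar type II cells, was listed at 0 in both libraries, and SFTPB and NKX2-1 lay under 1 RPKM. Markers of other cell types reached 1 RPKM for 3 of 9 fibroblast genes (summed level 40.0 RPKM in WT and 43.4 in MYOCD), 2 of 8 endothelial genes (25.4 and 21.9) and 3 of 8 blood cell genes (22.4 and 28.2). Among their defining markers, DCN and FAP, CDH5, VWF, KDR and TEK, and PTPRC and CD3E were listed at 0 in both. With 0.5 RPKM added to both values, 3 of the markers reaching 1 RPKM were past 2-fold, all higher in MYOCD. They were COL1A1, the collagen I chain gene, at 3.05 and 14.3 RPKM, ESAM, an endothelial adhesion gene, at 1.40 and 3.50, and the epithelial gene EPCAM at 0.889 and 2.57. Over all genes reaching 1 RPKM in a library, 5.42% were past 2-fold higher and 6.35% lower. Just short of 2-fold lower in MYOCD were the fibroblast gene THY1, at 1.91 and 0.959 RPKM, and the blood cell gene CD14, at 2.31 and 1.17. Of the 9 epithelial and A549 markers reaching 1 RPKM, 5 had higher and 4 had lower values in MYOCD. In the fibroblast list 1 was higher and 2 were lower, in the endothelial list 1 and 1, and in the blood cell list 1 and 2. The fibroblast sum was mostly FBLN1, at 34.3 and 27.6 RPKM. Likewise the endothelial sum was mostly EGFL7, at 23.7 and 18.2 RPKM, and the blood cell sum mostly CD68, at 18.3 and 25.1. The part of such markers in the results below was not tested. In such bulk RNA, fewer cells that express a gene and less RNA per cell cannot be told apart.

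Upstream sequence is shown for the members with the largest differences in either direction, DUSP1 and SPRY2, so that the motifs described next can be seen in place. Each line is the 250 bases before an annotated transcription start from RefSeq (GRCh38.p14), read 5′ to 3′ on the strand of the gene, which is minus for both. The DUSP1 stretch is chr5:172771196-172771445 and the SPRY2 stretch, taken at the most upstream of its 3 listed starts, is chr13:80341127-80341376. Neither overlaps an exon of the GENCODE 29 annotation. Capitals mark matches to the cAMP response element (CRE, TGACGTCA), its shorter core (TGACG), the E-box CACGTG, the ETS core CCGGAA and the TATA box TATAAA.
DUSP1: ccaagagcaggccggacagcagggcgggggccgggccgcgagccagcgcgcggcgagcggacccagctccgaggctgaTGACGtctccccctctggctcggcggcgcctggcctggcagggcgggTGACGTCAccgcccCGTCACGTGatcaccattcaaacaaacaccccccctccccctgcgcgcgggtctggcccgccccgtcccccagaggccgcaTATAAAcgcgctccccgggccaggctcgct
SPRY2: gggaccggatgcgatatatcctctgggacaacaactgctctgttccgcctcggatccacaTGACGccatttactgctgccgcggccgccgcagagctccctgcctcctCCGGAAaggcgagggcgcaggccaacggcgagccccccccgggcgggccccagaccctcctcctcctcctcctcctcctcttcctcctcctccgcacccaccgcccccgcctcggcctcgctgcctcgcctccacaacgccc

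The DUSP1 stretch held 1 full CRE, from 125 to 118 bases before the start, a letter match found in 1.65% of 35116 upstream stretches of the same length. The full CRE holds a core on each strand, so that 2 of the 4 cores of the stretch were its own. Another core, from 111 to 107 bases before the start, overlapped an E-box from 108 to 103, and a TATA box lay from 30 to 25 bases before the start. CRE cores occurred in 21.2% of all stretches, the E-box in 6.34% and the TATA box in 10.7%. The SPRY2 stretch held 1 CRE core, from 190 to 186, and 1 ETS core, from 142 to 137 bases before the start, a motif held by 14.5% of all stretches.

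Upstream stretches from the same table were used for 8 of the 10 genes, at 12 starts. None was used for DUSP5, and stretches on chromosome 8, which holds DUSP4, were left out for the members. Matches to the ETS core occurred in 3 of the 12 stretches, those of SPRY1 (its second start), SPRY2 and PHLDA1. The CRE core occurred in 3, those of DUSP1, SPRY2 and SPRY4. All motifs were searched on both strands. The CArG box, the sequence that SRF binds, matched in 0 of the 12, against 1.16% of all stretches. At so low a share, a count of 0 in 12 stretches says little. The GC box GGGCGG, not capitalised above, matched in 6 of the 12, against 42.6%, and the TATA box in 2. The AP-1 site TGANTCA matched in 0 of the 12, against 6.57%, and in so few stretches this count says little too. Their GC content ran from 39.2% to 78.4%, with a median of 64.0% against 58.0% over all stretches. These are matches of letters in short windows and were not linked to any measured binding. The motifs were chosen after the DUSP1 stretch had been seen.

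DUSP1 had the highest level of the group and the largest difference between the libraries. It encodes a nuclear phosphatase that acts on p38 and JNK as well as ERK and is made within minutes of many stimuli. Its gene lies on chromosome 5 from 172768090 to 172771195 on the minus strand (GRCh38), with 4 exons. It measured 66.1 RPKM in the WT library and 125 in the MYOCD library, a ratio of 1.89 between the deposited values. With 0.5 RPKM added to both values, the scale used for all changes here, its log2 change was 0.92, just under 2-fold, and 6.16% of all genes counted had a change as high or higher. In the order of all symbols by RPKM it stood at place 1708 in WT and 826 in MYOCD. When the median of 11 steady reference genes was set to 0, the log2 change of DUSP1 was 1.00, on the other side of 2-fold.

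DUSP5, the nuclear phosphatase specific for ERK, differed the other way. Its gene, of 5 exon blocks, lies on chromosome 10 from 110497838 to 110511544 on the plus DNA strand, and it measured 29.5 RPKM in the WT library and 18.1 in the MYOCD library, a log2 change of -0.69. Its pseudogene DUSP5P1 stood at 0.493 and 0.695 RPKM. DUSP4, a nuclear phosphatase of ERK and JNK on chromosome 8 (29333064 to 29350668, minus strand), had close values of 31.9 RPKM in WT and 35.2 RPKM in MYOCD, a log2 change of 0.14. So DUSP4 and DUSP5, near each other in WT, stood apart in MYOCD.

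DUSP6, the cytoplasmic phosphatase of ERK and a standard readout of its activity, was the lowest of these 4 genes and measured 3.27 RPKM in the WT library and 2.15 in the MYOCD library. This was a log2 change of -0.51. Its gene lies on chromosome 12 from 89347232 to 89353271 on the minus strand, and 1875 nt of its exons overlap an antisense gene, AC024909.2, which measured 1.36 RPKM in the WT library and 0.922 in the MYOCD library. The sources used here do not say whether reads were counted by strand, so reads of the shared stretch, 40.5% of the 4632 nt of the DUSP6 model, cannot be assigned to either gene. By RPKM and length in the GENCODE models, the antisense row held as many reads as 20.3% of those of DUSP6 in WT and 20.9% in MYOCD.

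**Figure D1:**
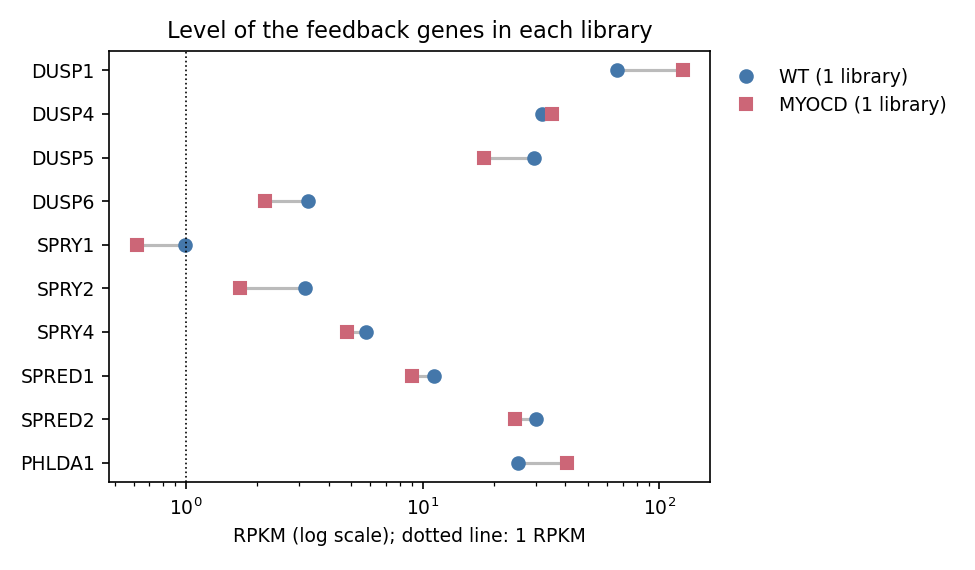
RPKM of each feedback gene on a log axis, with a circle for the WT library and a square for the MYOCD library, and no error because each group is 1 library. DUSP1 and PHLDA1 stand to the right in MYOCD, DUSP4 is nearly the same in both, and the other 7 genes stand to the left.

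The summed level of the 4 phosphatase genes was 131 RPKM in WT and 181 RPKM in MYOCD, and its make-up differed. DUSP1 made up 50.6% of the sum in WT and 69.3% in MYOCD. DUSP5 made up 22.5% and 10.04%, DUSP4 24.4% and 19.5%, and DUSP6 2.50% and 1.19%. The ratio of DUSP1, which acts on all 3 MAP kinase classes, to the ERK phosphatase gene DUSP5 was 2.24 in WT and 6.90 in MYOCD. The ratio of DUSP1 to DUSP6 was 20.2 and 58.3. These ratios lie within a library and so do not depend on its scaling.

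**Figure D2:**
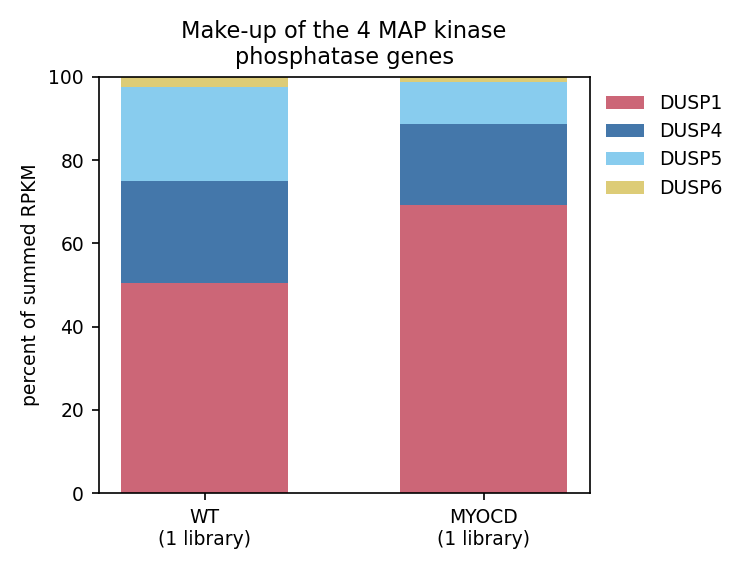
Share of each of 4 phosphatase genes in their summed RPKM, as a stacked bar for the WT library and one for the MYOCD library. The DUSP1 share is 50.6% in WT and 69.3% in MYOCD, and the DUSP5 share is 22.5% and 10.04%.

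All 3 Sprouty genes had lower values in MYOCD. SPRY2, on chromosome 13 from 80335976 to 80340951 on the minus strand, measured 3.17 RPKM in the WT library and 1.69 in the MYOCD library, a ratio of 0.531 and a log2 change of -0.75, the lowest of the 10 genes. SPRY4, on chromosome 5 from 142310427 to 142326455 on the minus strand, was the most abundant Sprouty gene and measured 5.77 RPKM in the WT library and 4.81 in the MYOCD library (log2 change -0.24). SPRY1, on chromosome 4 from 123396795 to 123403760 on the plus DNA strand, lay under 1 RPKM in both, at 0.988 in WT and 0.619 in MYOCD, and did not pass the filter of 1 RPKM in a library. Its log2 change of -0.41 is therefore given for completeness only. The sum of the 3 was 9.93 RPKM in WT and 7.11 RPKM in MYOCD, and SPRY4 made up 58.1% and 67.6% of it.

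The locus of SPRY4 also holds short non-coding rows. The row SPRY4-IT1_1, a 91-nt RNA model on the opposite strand with 0 nt of shared exon, measured 224 RPKM in the WT library and 261 in the MYOCD library. The row SPRY4-IT1, whose identifier GENCODE 29 does not hold, went the other way, at 1.41 and 0.251 RPKM. The antisense gene SPRY4-AS1 stood at 1.21 and 1.13 RPKM. These rows were picked with their values known, and RPKM of so short a model rests on few bases.

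The SPRED genes were lower in MYOCD by nearly the same small amount. SPRED1, on chromosome 15 from 38252326 to 38357249 on the plus DNA strand, is the gene mutated in Legius syndrome, and measured 11.1 RPKM in the WT library and 9.01 in the MYOCD library. SPRED2, on chromosome 2 from 65310851 to 65432637 on the minus strand, measured 30.0 RPKM in the WT library and 24.6 in the MYOCD library. Both had a log2 change of -0.29, and the ratio of SPRED2 to SPRED1 was 2.70 in WT and 2.73 in MYOCD. Their partner NF1, which encodes neurofibromin, stood at 48.9 and 53.0 RPKM.

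PHLDA1 was the other gene with a value past 1.5-fold higher in MYOCD. It lies on chromosome 12 from 76025447 to 76033932 on the minus strand, with 2 exon blocks, and measured 25.2 RPKM in the WT library and 40.8 in the MYOCD library, a ratio of 1.62 and a log2 change of 0.68. An antisense gene, AC011611.3, shares 553 of its 569 nt of exon with PHLDA1 and itself measured 48.8 RPKM in the WT library and 68.1 in the MYOCD library, a ratio of 1.39. The stretch shared with AC011611.3 is 6.85% of the 8069 nt of the PHLDA1 model. Another antisense gene, AC011611.4, shares 779 nt, 9.65% of the model, and measured 0.611 RPKM in WT and 0.691 in MYOCD. Strand use is not given, so reads of the shared stretches cannot be assigned to a gene. By RPKM and length in the GENCODE models, the AC011611.3 row held as many reads as 13.6% of those of PHLDA1 in WT and 11.8% in MYOCD.

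Of the 9 genes counted, those with at least 1 RPKM in a library, 0 were past 2-fold upwards and 0 downwards. Over all 17350 genes counted, 11.8% were past 2-fold in either direction (5.42% higher and 6.35% lower), and over the 12337 protein-coding genes 6.11% (3.02% higher and 3.1% lower). At 1.5-fold, 2 of the 9 were higher (DUSP1 and PHLDA1) and 2 were lower (DUSP5 and SPRY2), where the shares over all genes were 11.6% and 13.2%, and over protein-coding genes 8.52% and 8.89%. The median log2 change of the 9 was -0.29, with 6 below 0 and 3 above, and the median over all genes was -0.00. The order of levels in WT was DUSP1, DUSP4, SPRED2, DUSP5, PHLDA1, SPRED1, SPRY4, DUSP6, SPRY2 and SPRY1. In MYOCD it began DUSP1, PHLDA1, DUSP4, SPRED2 and DUSP5 and was otherwise the same. No spread is known by which neighbours in this order could be told apart.

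Changes between these libraries were spread more widely among genes of low level, so the members are set beside protein-coding genes of like mean RPKM. From 20 to 100 RPKM there were 4056 genes, of which the middle 90% had log2 changes between -0.55 and 0.55. DUSP1, PHLDA1 and DUSP5 lay outside those bounds, and SPRED2 and DUSP4 inside. From 1 to 5 RPKM the bounds over 2605 genes were -1.11 and 1.08, and SPRY2 and DUSP6 lay inside them although the ratio of SPRY2 was nearly as far from 1 as that of DUSP1. From 5 to 20 RPKM they were -0.73 and 0.75 over 4451 genes, and SPRY4 and SPRED1 lay inside. These bounds describe genes within 1 pair of libraries and are no measure of error.

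**Figure D3:**
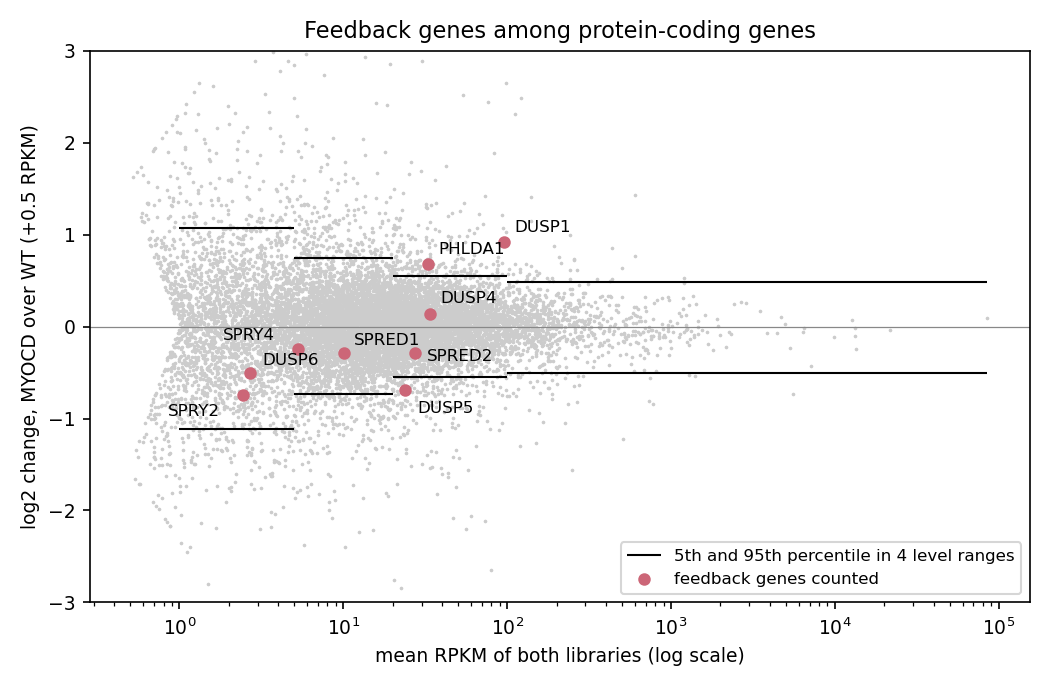
Log2 change between the libraries against mean RPKM (log axis) for protein-coding genes with 1 RPKM or more in a library (grey; 20 genes beyond log2 3 either way are not drawn) and for the 9 feedback genes counted (red). Black lines give the 5th and 95th percentiles of all protein-coding genes in 4 ranges of level, and DUSP1, PHLDA1 and DUSP5 lie outside them.

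Relatives of these genes in the same families also went both ways. Of 10 listed, 8 were counted, 3 above and 5 below 0, with a median log2 change of -0.34. DUSP7, which encodes a cytoplasmic ERK phosphatase akin to that of DUSP6, was the 1 relative past 2-fold, with 1.74 RPKM in WT and 4.11 RPKM in MYOCD (log2 change 1.04). It fell short of 2-fold when 1 RPKM was added in place of 0.5. Past 2-fold were 6.11% of protein-coding genes, and 12.6% of those from 1 to 5 RPKM, the range that holds DUSP7. Its change lay inside the bounds of that range, -1.11 and 1.08. The direction of DUSP7 was opposite to that of DUSP6. The JNK and p38 phosphatase genes DUSP16 (22.0 RPKM in WT and 14.95 in MYOCD) and DUSP8 (1.85 and 1.08) had lower values in MYOCD, and DUSP10 stood at 1.10 and 1.29. The cytoplasmic ERK phosphatase gene DUSP9 stood at 1.42 and 0.830 RPKM. SPRED3 measured 4.05 RPKM in the WT library and 2.85 in the MYOCD library, so all 3 SPRED genes had lower values there. PHLDA2 stood at 23.1 and 19.7 RPKM and PHLDA3, which encodes an inhibitor of AKT, at 42.1 and 52.6. DUSP2 and SPRY3 lay under 1 RPKM in both libraries.

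Other genes whose transcription ERK raises showed no common direction. Of 17 listed, 16 were counted, 10 above and 6 below 0, with a median log2 change of 0.11. FOS was the 1 gene past 2-fold and measured 4.67 RPKM in the WT library and 1.02 in the MYOCD library. The share past 2-fold was 6.11% over protein-coding genes and 12.6% over those from 1 to 5 RPKM, the range that holds FOS. The log2 change of FOS, -1.77, lay below the lower bound of that range, -1.11. CCND1, which encodes cyclin D1, stood at 166 and 133 RPKM, MYC at 57.1 and 75.2, and IER3 at 61.1 and 65.8. Some of these genes are used together with DUSP4, DUSP6, SPRY2, SPRY4 and PHLDA1 in transcript scores of ERK output, and they went both ways too. ETV4 measured 23.8 RPKM in the WT library and 16.5 in the MYOCD library, whereas its relative ETV5 stood at 14.4 and 20.8, and the receptor gene EPHA2 stood at 38.1 and 49.7. The last 3 were picked with their values known.

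Among the listed components above the feedback genes, no gene counted was past 2-fold. Over protein-coding genes 6.11% were, and 2.42% of those from 20 to 100 RPKM, so a count of 0 in such short lists says little. Of 14 receptors, adaptors and RAS genes, all counted, 0 were past 2-fold and the median log2 change was 0.03. FGFR1 stood at 168 and 201 RPKM, SHC1 at 124 and 115, and MET, the hepatocyte growth factor receptor gene, at 69.3 and 105. HRAS stood at 30.0 and 48.5 RPKM. MET and HRAS were past 1.5-fold. Of 14 genes of the RAF, MEK and ERK cascade and the MAP kinases that DUSP proteins act on, 13 were counted. The median was 0.15 and 0 were past 1.5-fold, against 17.4% of protein-coding genes and 8.90% of those from 20 to 100 RPKM. MAP2K2 stood at 101 and 99.3 RPKM, MAPK3 (ERK1) at 29.4 and 24.4, and the p38 gene MAPK14 at 14.4 and 18.9.

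Among 11 other negative regulators, 0 were past 2-fold, against 6.11% of protein-coding genes, and the median log2 change was 0.03. ERRFI1, which encodes the EGF receptor inhibitor MIG6, measured 72.7 RPKM in the WT library and 39.2 in the MYOCD library, a log2 change of -0.88. PEBP1, the RAF kinase inhibitor gene, stood at 79.9 and 97.5 RPKM. CBL, the ubiquitin ligase that Sprouty proteins bind, stood at 7.07 and 10.3 RPKM. Some genes in this account (HRAS, MAPK3, MAPK14, CBL and NF1's place beside the SPRED genes) were picked with their values known.

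**Figure D4:**
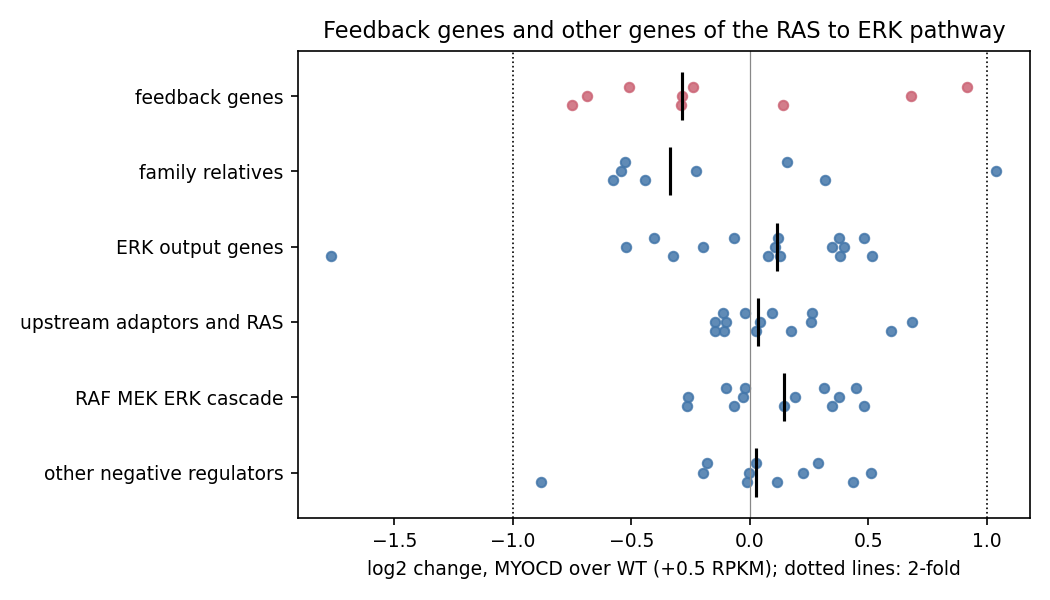
Log2 change between the libraries for each gene counted, by list, with the list median as a black bar and dotted lines at 2-fold. The 9 feedback genes (red) run from -0.75 to 0.92 with none past 2-fold, and the points past 2-fold in the other lists (blue) are DUSP7 (higher) and FOS (lower).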

How the data were processed

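Values are RPKM as the authors deposited them, in a table of 57979 gene rows whose key lines, per the file headers, define a WT and a MYOCD column. Per the submitters' processing notes, Bowtie 0.12.2 and the builds mm8 (mouse) and GRCh38.p12 were named, with no role. Not given there or elsewhere in the labels are the counting tool, annotation, strand use and the treatment of reads with several matches. Low values were not whole multiples of a read (28.0% in WT and 29.9% in MYOCD within 0.1 of a whole number, where 20% is due by chance), so depth is unknown and no count test was run.

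The log2 change was log2((MYOCD + 0.5)/(WT + 0.5)), which understates the change of low genes. Genes with 1 RPKM or more in a library were counted, and 2-fold was a rule of size, not a test. For symbols on several rows (248) the row with the higher mean was used. Positions came from GENCODE 29 (GRCh38), which held 57375 of the identifiers. Python 3.11.15, numpy 2.4.6 and pandas 2.3.3 were used. Members, lists and settings were chosen with earlier results of these data known. Genes named were the 10 members, MYOCD, relatives reaching 1 RPKM, genes of the other lists past 2-fold and the 3 most abundant of each, and those said to be added. With 2 libraries no likeness of pattern was measured. Alternatives covered pseudocount, filter, scaling, repeated symbols and the 1.5-fold rule. Some genes of the other lists enter the counts but are not reported here by name.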

Additional observations from a re-analysis of the deposited data

How the results depend on the processing

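Over the 8 alternative settings of pseudocount, filter and scaling, the direction of each of the 10 members stayed as given. None of these settings could have reversed it. A pseudocount or a filter cannot change the sign of a log2 change. The scalings shifted changes by at most 0.09, less than the smallest change of a member (0.14, for DUSP4). Setting the median of the steady reference genes to 0, which shifted all changes by 0.09, put 1 member past 2-fold (DUSP1, log2 change 1.00). With a 1.5-fold rule, 2 members were higher and 2 lower, and 5 genes of the other pathway lists were past it (DUSP7, FOS, MET, HRAS and ERRFI1). Past 2-fold in those lists were 2 genes as reported, 1 with a pseudocount of 1 RPKM and 0 with at least 5 RPKM in a library, a filter that neither DUSP7 nor FOS passes. The log2 change of DUSP1 ran from 0.91 to 1.00, of PHLDA1 from 0.67 to 0.77, of DUSP5 from -0.70 to -0.60 and of SPRY2 from -0.87 to -0.64. No paired analysis was possible because each group has 1 library, and none could be left out. Depth is unknown, so the precision of low values such as those of SPRY1, SPRY2 and DUSP6 is unknown too.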

Other observations

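The table holds 14 further genes of the DUSP symbol family, most of them small atypical phosphatases. Of these, 9 were counted and 0 were past 1.5-fold, against 17.4% of protein-coding genes. From 20 to 100 RPKM, the range that holds DUSP3, DUSP12, DUSP14, DUSP23 and DUSP11, the share was 8.90%. A count of 0 in so short a list says little. The 14 were listed after the data had been seen. DUSP3, which encodes the small phosphatase VHR that acts on ERK and JNK, measured 41.5 RPKM in the WT library and 29.7 in the MYOCD library, a log2 change of -0.48. DUSP12 stood at 25.9 and 27.6 RPKM, DUSP14 at 24.2 and 22.7, DUSP23 at 22.5 and 21.4 and DUSP11, an RNA phosphatase gene, at 20.2 and 20.4. DUSP18 stood at 4.37 and 5.98 RPKM, and DUSP21 and DUSP27 were listed at 0 in both libraries.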
